A study of Oryza sativa with 6 samples.

Results

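The CYP78A family was examined in developing rice embryos: 9 of the 61955 genes in the deposited table, taken because their best protein hit in NR or Swiss-Prot was named cytochrome P450 78A or CYP78A. All 9 met the rule through Swiss-Prot, 6 of them also through NR, and 8 carried a Pfam entry. CYP78A enzymes are plant-specific cytochrome P450 monooxygenases bound to membranes. They are known to control how long organs keep growing, and their substrate in the plant is unsettled. In Arabidopsis, CYP78A5 (KLUH) promotes the growth of leaves, flowers and seeds beyond the cells that express it, and CYP78A6 and CYP78A9 promote seed and fruit growth. In rice, CYP78A11 is PLASTOCHRON1 (PLA1), which sets the pace of leaf initiation, and GIANT EMBRYO (GE), a CYP78A gene of chromosome 7, restrains the growth of the embryo and favours the endosperm.

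RNA was measured in embryos of 2 near-isogenic indica lines, NIL-D and NIL-X, collected on about day 15 after flowering, with 3 samples per line. NIL-D holds the GE allele of the giant embryo cultivar Dapeimi, in which a deleted cytosine shifts the reading frame from the first exon on. Its sample titles read GED and its genotype label CMP-/-, a term the labels leave unexplained. NIL-X holds the matching segment of 187R, a cultivar with embryos of normal size, and is labelled wild type. Both lines descended by selfing from the same cross of 187R with Dapeimi and grew in a field of 3 plots that each held both lines, so the embryos differ in a chromosome segment and whatever else selfing left unequal, not in 1 gene alone, and each allele is represented by a single line. By the study's methods, each plot gave 1 RNA sample per line. Titles share the numbers 1 to 3 between the lines, but no label ties a number to a plot.

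Values are TPM, which set each gene's reads against its length and scale every sample to the same total, so levels of different genes can be compared, and are given in the order of replicates 1 to 3 within a line. TPM hold no read counts, so the depth behind a value is unknown. Oleosins and other embryo markers summed to between 52184 and 54121 TPM in NIL-D and between 54428 and 59960 TPM in NIL-X, so these sums did not overlap. Of these 22 genes, 19 were tested, 0 called and 2 had an unadjusted p below 0.05. Embryo genes were thus expressed in every sample, the oleosin OsZS_04G0421400 at the highest level. The lines did not overlap in 5 of the 19, against 24.3% of all tested genes. Their log2 fold changes of NIL-D over NIL-X ran from -0.88 to 0.64, and 11 were above 0. The lowest was that of OsZS_05G0257500, with 6101, 7782 and 9934 TPM in NIL-D, against 14936, 15257 and 13030 TPM in NIL-X (limma adjusted p = 0.306). The endosperm sums, given next, were of the same order, and the share of each tissue in the samples was not measured. Endosperm markers (40 genes, of which 34 were tested, 0 called and 13 had an unadjusted p below 0.05) summed to between 42108 and 42250 TPM in NIL-D and between 41732 and 53233 TPM in NIL-X. Their median log2 fold change of NIL-D over NIL-X was -0.55, against -0.15 over all tested genes, of which 15.6% had an unadjusted p below 0.05, and 8 of the 34 were above 0. Most of the summed level was OsZS_08G0025200, annotated as glutelin type-A 1-like. Without it, the sum was lowest in NIL-D replicate 3, at 4750 TPM, and highest in NIL-X replicate 3, at 18649 TPM. OsZS_08G0025200 itself ran the other way, highest in NIL-D replicate 3 (37484 TPM) and lowest in NIL-X replicate 3 (30189 TPM). Of 13 genes of chlorophyll-binding proteins of green tissue, 3 were tested, 0 called and 1 had an unadjusted p below 0.05, OsZS_09G0114000 being the highest. The 13 genes summed to between 4.34 and 5.53 TPM in NIL-D and between 9.65 and 11.2 TPM in NIL-X, and these sums did not overlap either. The lines did not overlap in 1 of the 3 tested genes, against 24.3% of all tested genes, and the median of the 3 was -0.74. The median of the embryo markers was 0.11. The part of these shifts in the values below was not tested. NIL-D replicate 3 stood apart: it was the lowest of the 6 samples for 42.8% of tested genes and the highest for 14.1%. In whole embryos, fewer cells of a type and less RNA per cell cannot be told apart.

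Within this family, GE is the member that the NIL-D allele disrupts. The study gives GE the transcript name OsZS_07T0416900, but the gene with that number is annotated as a cytosolic sulfotransferase. A single member of the family lies on chromosome 7, OsZS_07G0414800, and it is called the chromosome 7 member here. That it is GE rests on its family and chromosome, since no sequence of either gene was compared. The study read the GE coding sequence with the following primer pairs, shown because they are the oligos with which the GE alleles of the lines' parents were read. They are written 5′ to 3′ with no part in capitals, and they were not placed on a genome here.
DST900-1 forward: ttcgcgaacgcttcccat
DST900-1 reverse: gccgaaatgcggtttgtgat
DST900-2 forward: acgtcgcctccctcatgtcc
DST900-2 reverse: ctggatgtaggggaggctcg

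The chromosome 7 member, 2059 bp long and named after Arabidopsis CYP78A5 in both databases, had 5.26, 5.01 and 0.99 TPM in NIL-D, against 3.3, 3.73 and 3.48 TPM in NIL-X. Replicates 1 and 2 of NIL-D thus lay above all NIL-X samples and replicate 3 below them, so the lines overlapped. Its mean was 3.75 ± 2.40 TPM in NIL-D, against 3.50 ± 0.22 TPM in NIL-X (± SD of 3 samples). Its transcript was thus detected in every NIL-D embryo sample. The log2 fold change of NIL-D over NIL-X, computed on TPM + 1 as for all genes below, was -0.09 (SE 0.45, limma adjusted p = 0.934). Its 95% interval ran from -1.16 to 0.97, so that a change of about 1 in either direction, on TPM + 1, remained possible. With 0.1 added to the TPM in place of 1, the log2 fold change was -0.21 and its SE larger, at 0.62 (limma adjusted p = 0.886). The value on TPM + 1 rested on NIL-D replicate 3: without that sample the log2 fold change was 0.45 (SE 0.15, unadjusted p = 0.0221, limma adjusted p = 0.129).

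**Figure D1:**
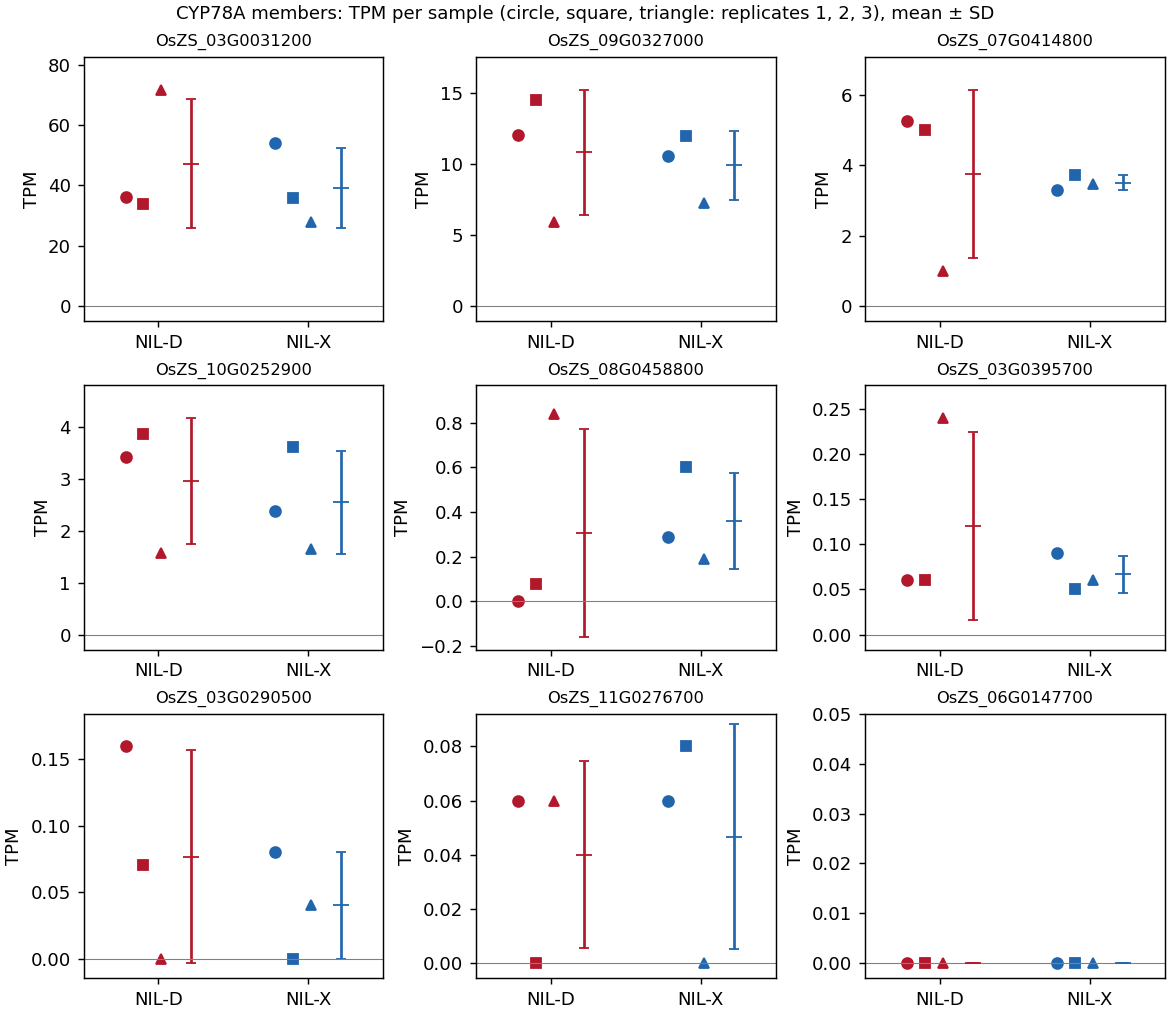
TPM of each CYP78A member in every sample, with a panel for each gene and its own vertical axis in TPM; NIL-D is at the left (red) and NIL-X at the right (blue), symbols mark replicates, and bars give mean ± SD (n = 3 per line). In the 4 members with the highest TPM the lines overlap, and the NIL-D triangle, replicate 3, lies at 71.78 TPM in OsZS_03G0031200 and at 0.99 TPM in OsZS_07G0414800.

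OsZS_03G0031200 on chromosome 3, 2110 bp long, was the main CYP78A gene of these embryos. NR names it cytochrome P450 78A6, and its Swiss-Prot hit is Arabidopsis CYP78A9. It had 36.17, 33.72 and 71.78 TPM in NIL-D, against 53.99, 35.73 and 27.97 TPM in NIL-X. Replicate 3 of NIL-D was the highest of all samples and the other NIL-D values lay inside the NIL-X range. The log2 fold change amounted to 0.23 (SE 0.35, limma adjusted p = 0.778), with a 95% interval from -0.61 to 1.07. Without NIL-D replicate 3 it was -0.11, so the sign also hung on that sample.

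OsZS_09G0327000 on chromosome 9, 1662 bp long, came next. Both databases name it after CYP78A9. It had 12.02, 14.5 and 5.94 TPM in NIL-D, against 10.53, 11.98 and 7.25 TPM in NIL-X. In both lines replicate 2 was the highest and replicate 3 the lowest. Its log2 fold change came to 0.06 (SE 0.34, limma adjusted p = 0.945, 95% interval from -0.74 to 0.86). It was 0.41 without NIL-D replicate 3, 0.11 without NIL-X replicate 1 and 0.20 without NIL-X replicate 2, and it turned to -0.05 without NIL-D replicate 1, -0.17 without NIL-D replicate 2 and -0.13 without NIL-X replicate 3, so its sign depended on single samples.

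OsZS_10G0252900 on chromosome 10, 2188 bp long, has rice CYP78A11, the PLA1 protein, as its Swiss-Prot hit. It had 3.42, 3.87 and 1.58 TPM in NIL-D, against 2.37, 3.62 and 1.65 TPM in NIL-X. Here too replicate 2 was the highest and replicate 3 the lowest in both lines. Its log2 fold change stood at 0.14 (SE 0.32, limma adjusted p = 0.854, 95% interval from -0.63 to 0.92). Leaving out NIL-D replicate 3 gave 0.43 and NIL-X replicate 2 gave 0.35, NIL-D replicate 1 gave 0.04, and the sign turned without NIL-D replicate 2 (-0.03) and without NIL-X replicate 3 (-0.05).

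The other 5 members stayed below the minimum for testing, a mean of 0.5 TPM over the 6 samples. OsZS_08G0458800 on chromosome 8, named after CYP78A9, had 0, 0.08 and 0.84 TPM in NIL-D, against 0.29, 0.6 and 0.19 TPM in NIL-X. It was the member nearest to the minimum, with a mean of 0.33 TPM, and NIL-D replicate 3 was again its highest sample. On chromosome 3, OsZS_03G0395700 had 0.06, 0.06 and 0.24 TPM in NIL-D, against 0.09, 0.05 and 0.06 TPM in NIL-X, and OsZS_03G0290500 had 0.16, 0.07 and 0 TPM in NIL-D, against 0.08, 0 and 0.04 TPM in NIL-X. Both are named after CYP78A5. OsZS_11G0276700 on chromosome 11, with the same Swiss-Prot hit, had 0.06, 0 and 0.06 TPM in NIL-D, against 0.06, 0.08 and 0 TPM in NIL-X. OsZS_06G0147700 on chromosome 6 was listed at 0 TPM in all 6 samples. It is the shortest member, at 840 bp, the 1 member with no Pfam entry, and its Swiss-Prot hit is CYP78A4 of the pine Pinus radiata. In these 5 genes no line stood clear of the other.

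In order of mean level, OsZS_03G0031200 exceeded OsZS_09G0327000 in 6 of 6 samples, and OsZS_09G0327000 exceeded the chromosome 7 member in 6 of 6, with no overlap of their ranges. The chromosome 7 member and OsZS_10G0252900 overlapped, although the chromosome 7 member was higher in 5 of 6 samples, the exception being NIL-D replicate 3. OsZS_10G0252900 in turn exceeded OsZS_08G0458800 in 6 of 6 samples. Below that, the ranges of neighbours in the order overlapped down to the gene at 0 TPM.

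Summed over its 9 members, the family reached 57.15, 57.31 and 81.43 TPM in NIL-D. In NIL-X it reached 70.71, 55.79 and 40.64 TPM. Its mean was 65.3 ± 14.0 TPM in NIL-D, against 55.7 ± 15.0 TPM in NIL-X (± SD of 3 samples), a difference below the SD of either line. The difference of 9.58 TPM became 1.52 TPM without NIL-D replicate 3, 2.05 TPM without NIL-X replicate 3 and 17.1 TPM without NIL-X replicate 1. OsZS_03G0031200 supplied 63.3%, 58.8% and 88.1% of the sum in NIL-D and 76.4%, 64.0% and 68.8% in NIL-X. The chromosome 7 member supplied 9.20%, 8.74% and 1.22% in NIL-D, against 4.67%, 6.69% and 8.56% in NIL-X. Without OsZS_03G0031200, the remaining 8 members summed to 20.98, 23.59 and 9.65 TPM in NIL-D, against 16.72, 20.06 and 12.67 TPM in NIL-X. NIL-D replicate 3 therefore had the highest sum of all members and the lowest sum of the remaining 8.

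**Figure D2:**
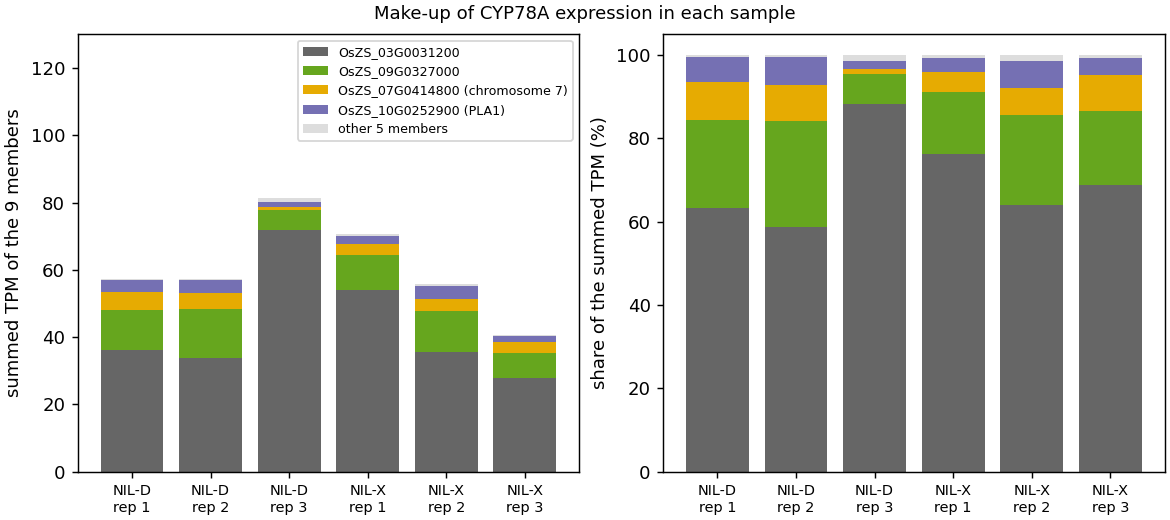
Left, summed TPM of the 9 CYP78A members in each sample, and right, the same as percent of that sum; bars are stacked by gene, NIL-D samples first. OsZS_03G0031200 (dark grey) makes up between 58.8% and 88.1% of every bar, and the share of the chromosome 7 member (yellow) is smallest, at 1.22%, in NIL-D replicate 3.

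The ratio of other members to the chromosome 7 member was at its most extreme in NIL-D replicate 3. OsZS_03G0031200 was 6.88, 6.73 and 72.5 times the level of the chromosome 7 member in NIL-D, against 16.4, 9.58 and 8.04 times in NIL-X. For OsZS_09G0327000 the ratio was 2.29, 2.89 and 6 in NIL-D, against 3.19, 3.21 and 2.08 in NIL-X. Of the 4 tested members, NIL-D replicate 3 was the lowest of the 6 samples in 3 and the highest in 1. Over all tested genes it was the lowest in 42.8% and the highest in 14.1%. In that sample the endosperm markers other than OsZS_08G0025200 were also at their lowest sum, while OsZS_08G0025200 itself was at its highest, 37484 TPM. The part of these levels in the members' values was not tested.

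None of the 4 tested members was a differentially expressed gene (DEG) between the lines by limma, and 0 had an unadjusted p below 0.05. To be a DEG, a gene needed an adjusted p-value (Benjamini-Hochberg over the 21500 tested genes) below 0.05 and a log2 fold change of at least 1 in size. This held for 138 genes, 0.642% of those tested, 57 higher and 81 lower in NIL-D. Without NIL-D replicate 3 it held for 611 genes, and without any other single sample for 37 to 66. An unadjusted p below 0.05 was found for 15.6% of tested genes, and the lines did not overlap in 24.3% of tested genes, against 0 of the 4 members. The median log2 fold change was 0.10 over the 4 members and -0.15 over all tested genes. Median-ratio rescaling brought the median of all genes to 0.00048 and quantile normalization to -0.008, and the calls then numbered 75 higher and 61 lower, or 72 higher and 54 lower. Relative to the median of all genes, the log2 fold changes were 0.38 for OsZS_03G0031200, 0.21 for OsZS_09G0327000, 0.06 for the chromosome 7 member OsZS_07G0414800 and 0.29 for OsZS_10G0252900, each smaller than or close to its SE. The direction of the chromosome 7 member flipped under both scalings, to 0.03 and 0.10. Calls of CYP78A members stayed at 0 under all 16 alternatives tried. Membership by a single database and dropping the fold limit reused the main fit, so these could not add a call here. At a mean of at least 5 TPM only 2 members were tested, without the chromosome 7 member.

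**Figure D3:**
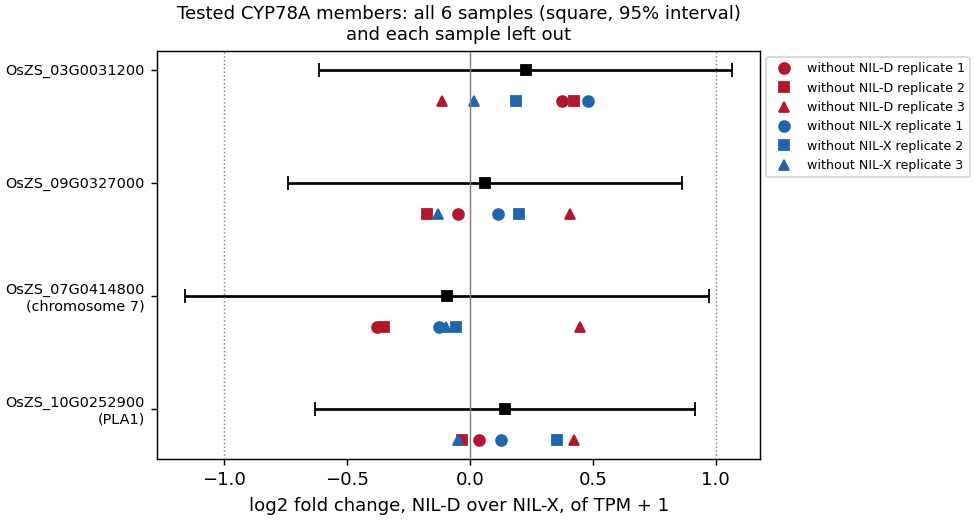
Log2 fold change of NIL-D over NIL-X for the 4 tested members; black squares with bars are the estimates from all 6 samples with their 95% intervals, coloured symbols the estimates with a single sample left out, and dotted lines the limits of -1 and 1 for DEGs. All 4 intervals span 0, and the estimate of OsZS_07G0414800 lies at 0.45 without NIL-D replicate 3 against -0.38 without NIL-D replicate 1.

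Among the cytochrome P450s of the table, the family was a small part. The other 240 P450 genes had a summed mean of 1248 TPM, against 60.5 TPM for the 9 members, or 4.63% of the total of both. By mean TPM, OsZS_03G0031200 ranked 9 of 249, OsZS_09G0327000 ranked 29, the chromosome 7 member 43 and OsZS_10G0252900 51. Of the members, 4 (44.4%) passed the minimum for testing, against 88 (36.7%) of the other P450s. Among those 88, 2 were called higher and 1 lower in NIL-D, where 0.642% of all tested genes were called. Their median log2 fold change was -0.08. An unadjusted p below 0.05 was found for 20 of them, against 15.6% of all tested genes. OsZS_12G0352600, with a CYP81Q hit of Catharanthus, had 18.33, 16.98 and 8.46 TPM in NIL-D, against 0.42, 0.26 and 0.33 TPM in NIL-X (log2 fold change 3.48, SE 0.30, limma adjusted p = 0.00655). OsZS_06G0212700, annotated as a premnaspirodiene oxygenase, a sesquiterpene-oxidizing P450, had 131, 118 and 45.4 TPM in NIL-D, against 12.9, 14.6 and 8.9 TPM in NIL-X (2.80, SE 0.41, limma adjusted p = 0.0478). OsZS_09G0269700, an abscisic acid 8′-hydroxylase, which starts the breakdown of this hormone, had 1.19, 0.39 and 0.54 TPM in NIL-D, against 11.0, 6.24 and 7.13 TPM in NIL-X (-2.41, SE 0.28, limma adjusted p = 0.0201). The P450 with the highest level, OsZS_02G0285200 (CYP73A100, a cinnamate hydroxylase), had a log2 fold change of 0.07 (limma adjusted p = 0.915). Whether the family differs from other P450s in its response was not tested.

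**Figure D4:**
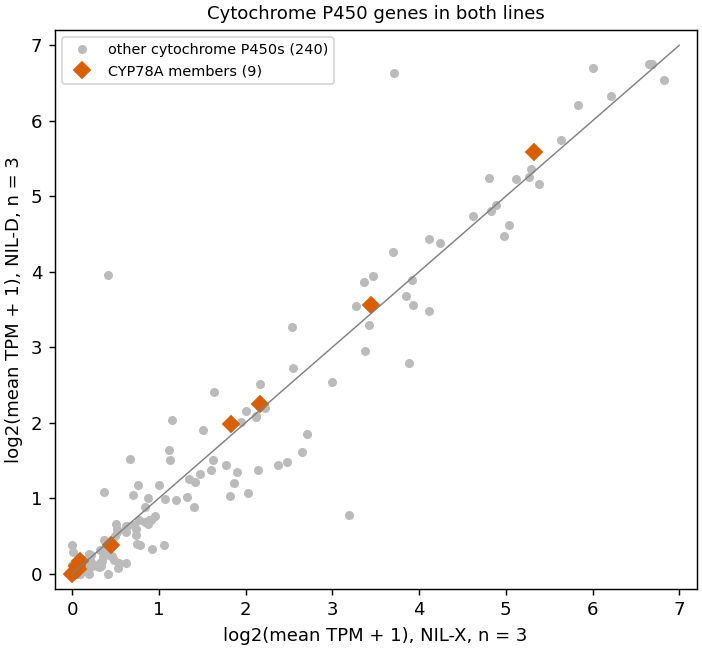
Mean level of each cytochrome P450 gene in NIL-D (vertical) against NIL-X (horizontal), both as log2 of mean TPM + 1 with n = 3 per line; orange diamonds are the 9 CYP78A members, grey points the other 240 P450s, and the line marks equal levels. The members lie close to the line, and the grey point farthest above it, OsZS_12G0352600, has a log2 fold change of 3.48.

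Some CYP78A enzymes hydroxylate fatty acids in vitro, as do P450s of the CYP86, CYP94 and CYP704 families. Of 35 genes of these families, 15 were tested, 0 were called and 4 had an unadjusted p below 0.05, against 15.6% of all tested genes. Their median log2 fold change was -0.08. The most highly expressed of them, OsZS_09G0331900 with a CYP94A hit, had 99.2, 117 and 103 TPM in NIL-D, against 99.4, 103 and 96.9 TPM in NIL-X. P450s of this kind receive electrons from NADPH-cytochrome P450 reductase and, in part, cytochrome b5. All 18 genes annotated with these names, or as related b5 proteins and reductases, were tested, 0 were called and 4 had an unadjusted p below 0.05, with a median of -0.22. Cytochrome b5 OsZS_05G0007500, the highest of them, had 263, 253 and 302 TPM in NIL-D, against 333, 298 and 355 TPM in NIL-X.

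Earlier work linked GE to the growth hormone auxin, whose genes were therefore set beside the family. Of 19 genes of auxin synthesis (YUCCA flavin monooxygenases and tryptophan aminotransferases), 9 were tested, 0 were called and 2 had an unadjusted p below 0.05. Such a p was found for 15.6% of all tested genes. Their log2 fold changes ran from -0.82 to -0.07, with a median of -0.43, where that of all tested genes was -0.15. The highest of them, the aminotransferase OsZS_01G0064900, had 5.26, 8.63 and 8.07 TPM in NIL-D, against 8.44, 12.5 and 9.24 TPM in NIL-X, so that the lines overlapped. Of 28 auxin transport genes (PIN efflux carriers and AUX1-like permeases), 16 were tested, 0 called, 6 had an unadjusted p below 0.05 and the median was -0.39. The permease OsZS_03G0126500 had 28.1, 24.5 and 7.27 TPM in NIL-D, against 23.0, 24.9 and 17.9 TPM in NIL-X. Of 14 genes of GH3 synthetases, which conjugate auxin to amino acids, 8 were tested, 0 called, 1 had an unadjusted p below 0.05 and the median was -0.29. OsZS_07G0407300 (GH3.8) had 326, 452 and 271 TPM in NIL-D, against 175, 149 and 350 TPM in NIL-X.

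Other genes known to set organ, grain or embryo size were chosen by annotation: glutamate carboxypeptidases, among them PLA3, MEI2-like proteins, DA1-related proteins, BIG BROTHER and GW2 ubiquitin ligases and AINTEGUMENTA-like factors. Of 24 such genes, 20 were tested, 0 were called and 1 had an unadjusted p below 0.05, with a median log2 fold change of -0.12. Of all tested genes, 0.642% were called and 15.6% had such a p, and their median was -0.15. PLA3 (OsZS_03G0564400), whose loss in rice speeds leaf initiation as that of PLA1 does, was the highest of them. It had 105.18, 114.01 and 135.47 TPM in NIL-D, against 88.6, 88.26 and 104.51 TPM in NIL-X. All NIL-D values lay above the NIL-X values, but with a log2 fold change of 0.33 (SE 0.14) and a limma adjusted p of 0.336 it did not pass. PLA2 of rice also paces leaf initiation and is annotated as protein terminal ear1 homolog. Of the 2 genes with that name, added here after their values had been seen, 1 was tested, OsZS_01G0655500, which had 0.17, 0.18 and 0.34 TPM in NIL-D, against 0.91, 0.98 and 0.86 TPM in NIL-X. Its lines did not overlap, with a log2 fold change of -0.64, an SE of 0.18 and a limma adjusted p of 0.201. All 6 values lay below 1 TPM, so the 1 added to each makes this log2 fold change smaller than that of the TPM themselves. The lines also did not overlap in 24.3% of all tested genes and in 5 of the 20 tested size genes, PLA3 among them.

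The members lie on 7 chromosomes, with 3 of them on chromosome 3 and 1 on each of the others. The 5 known genes on either side of each member, in the order of gene numbers, came to 90 genes. Of these, 41 were tested, 0 were called and 6 had an unadjusted p below 0.05, against 15.6% of all tested genes. Their median log2 fold change was -0.04.

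The genes most like 2 of the members over the 6 samples were sought on log2(TPM + 1), as a description with no test, since each is the closest of 21500 and the samples of a line are pooled. For OsZS_03G0031200 these were OsZS_04G0436900 (LAZ1 protein, Pearson's r = 0.987), OsZS_01G0679700 (PsbP domain-containing protein 7, r = 0.971) and OsZS_02G0459600 (r = 0.970), and 8 genes in all had an r above 0.95. For the chromosome 7 member OsZS_07G0414800 these included OsZS_02G0564900 (N-alpha-acetyltransferase 40, r = 0.999) and OsZS_11G0123700 (r = 0.997), and 652 genes had an r above 0.95. Both of these genes were lowest in NIL-D replicate 3, as OsZS_02G0564900 was with 10.2, 10.1 and 3.81 TPM in NIL-D, against 7.71, 8.11 and 7.9 TPM in NIL-X.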

How the data were processed

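Embryo RNA of NIL-D and NIL-X (3 samples each) was analysed from the table of TPM that the authors deposited, with 2 decimals and with the authors' means per line. Per the study's methods, reads were trimmed with SeqPrep and Sickle, assembled with Cufflinks, mapped with TopHat to ZS97RS3 (RIGW3.0) and quantified with RSEM. The submitters' processing notes instead name Bowtie 0.12.2 and mm8, a mouse build. Depth per sample is unknown, so no counting interval was computed, and reads shared between close relatives may be split among them.

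Samples were grouped by strain label. The members and gene lists were chosen with earlier results of these data known. Genes averaging at least 0.5 TPM over the 6 samples were tested in limma 3.58.1 (R 4.3.3; lmFit, eBayes with trend) on log2(TPM + 1), which understates changes of low genes. edgeR takes counts and was not used. The p-values measure the spread between field samples of 1 line each. The step was tested on simulated data with independent noise for each gene and sample. The simulation held no outlying sample and no shift of all genes, so it does not cover these. All members are named, and of each list the DEGs and the gene with the highest mean TPM; neighbours are given as counts. RefSeq names (assembly ASM3414082v1) matched 6 members, with no coordinates taken. Alternatives were another pseudocount (0.1), filters, scalings, no trend, no fold limit, a replicate block, membership by a single database and leaving out each sample. Figures used Python 3.11.15 and matplotlib 3.10.9. Of the genes most like a member, 1 is not reported here.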

Additional observations from a re-analysis of the deposited data

How the results depend on the processing

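Leaving out single samples gave log2 fold changes from -0.11 to 0.48 for OsZS_03G0031200, from -0.17 to 0.41 for OsZS_09G0327000, from -0.38 to 0.45 for OsZS_07G0414800 and from -0.049 to 0.43 for OsZS_10G0252900, so each turned its sign at least once. OsZS_07G0414800 also turned under median-ratio rescaling (0.027) and quantile normalization (0.10). The smallest limma adjusted p of any member under any alternative was 0.129, for OsZS_07G0414800 without NIL-D replicate 3, and the largest was 1. The count of all DEGs was 138 and ran from 37 (without NIL-X replicate 1) to 611 (without NIL-D replicate 3). It was 32 without a filter, 57 at a mean of at least 5 TPM and 43 under a replicate block. The causes were not tested. The numbers were not taken to pair the samples, since no label ties them to plots. Same-numbered samples had correlations of 0.0164, 0.202 and 0.199 after removal of line means. NIL-D replicates 2 and 3 correlated best with the NIL-X sample of their own number, and NIL-D replicate 1 with NIL-X replicate 2. The block changed no call of a member. Under it the SE was 0.17 for OsZS_09G0327000 (0.34 without), 0.19 for OsZS_10G0252900 (0.32), 0.38 for OsZS_03G0031200 (0.35) and 0.39 for OsZS_07G0414800 (0.45). The summed TPM differed by 9.58 between the lines (NIL-D minus NIL-X) and by 1.52 to 18.1 under the alternatives. The NR column alone gave 6 members and the KEGG entry for CYP78A, chosen after seeing the data, 7. Without counts, levels below the minimum of 0.5 TPM cannot be given an interval.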

Other observations

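The KEGG entries of the members disagree with their names. The entry for plant CYP78A (K20619) is given to 5 of the 9 members, the chromosome 7 member OsZS_07G0414800 among them. The 2 most highly expressed, OsZS_03G0031200 and OsZS_09G0327000, instead carry K07408, named CYP1A1 after an animal enzyme, and through it stand under tryptophan metabolism in the pathway column, and OsZS_08G0458800 and OsZS_11G0276700 carry none. The CYP78A entry is also given to OsZS_06G0147800 and OsZS_10G0093500, which the rule for members did not take and which were listed at 0 TPM in all 6 samples. They are 246 and 186 bp long and share their NR hit with OsZS_06G0147700.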
